A study of Mus musculus with 6 samples.

Results

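The 57 mouse genes described here encode proteins that drive mitosis, the division of the chromosomes, and cytokinesis, the division of the cell body. They were chosen by name, with earlier results of these data known. All 57 were found among the 30055 gene symbols of the deposited table, and all 57 were among the 15035 genes that passed the low-count filter. RNA was sequenced from endothelial cells that were taken from the lungs of 3-week-old female C57BL6 mice null for Ch25h and cultured. Every group carried the deletion of Ch25h, the gene of cholesterol 25-hydroxylase. One group received tumour-derived extracellular vesicles (TEV) from MC38 mouse colorectal tumour cells at 20 µg per ml for 12 h, after reserpine at 10 µM for 8 h. Another received the same vesicles alone, and the vehicle group received PBS. Each of the 3 groups held 2 libraries. Reserpine is a drug that blocks vesicular monoamine transporters. No library of cells given reserpine without vesicles was analysed here. Part of the series description could mean that every group had reserpine first; the sample labels, which give it to 1 group, were followed. Nothing in the labels tells if both libraries of a group came from separate cultures or animals, so p-values measure the spread between these libraries only, which may be technical. The libraries held 22270657 to 81225627 estimated counts.

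Mitotic genes are switched on together late in the cell cycle. In resting cells and in early cell cycle phases, a repressor built on the MuvB core holds them off by binding a short promoter element called the cell cycle genes homology region, or CHR. Later the same core joins MYBL2 and FOXM1 to activate them, often beside CCAAT boxes bound by the factor NF-Y. Cyclin B with CDK1 then starts mitosis, kinetochores tie chromosomes to the spindle, a checkpoint delays the anaphase-promoting complex until all are attached, and the central spindle directs the final cut. In vessels, endothelial cells are mostly at rest and divide during growth and repair.

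The shared promoter elements can be seen in the sequences. RefSeq's promoter table (build GRCm38.p6, 250 bases before to 50 bases after the start) held 48 of the 57 genes by symbol, and the first listed start was used. The stretches below are the 110 bases just before the start, read 5′ to 3′ on the gene's strand. Capitals mark the CHR letters TTTGAA and the CCAAT letters, each on either strand, so TTCAAA and ATTGG are capitals too. Cdk1, Ube2c and Cdc20 are shown as genes of mitotic entry and exit that hold both elements, Kif22 and Bub3 as genes with both whose levels with TEV plus reserpine stayed near those with TEV, and Nusap1 as a gene with neither.
Cdk1 (chr10:69352913-69353022, minus strand): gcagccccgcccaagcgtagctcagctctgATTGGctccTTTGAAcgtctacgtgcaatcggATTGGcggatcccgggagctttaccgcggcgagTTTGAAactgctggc
Ube2c (chr2:164769819-164769928, plus strand): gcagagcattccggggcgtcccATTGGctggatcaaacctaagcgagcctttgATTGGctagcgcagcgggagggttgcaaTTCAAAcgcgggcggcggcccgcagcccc
Cdc20 (chr4:118437344-118437453, minus strand): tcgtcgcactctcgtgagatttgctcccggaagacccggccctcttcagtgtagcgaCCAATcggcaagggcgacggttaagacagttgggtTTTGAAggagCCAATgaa
Kif22 (chr7:127042421-127042530, minus strand): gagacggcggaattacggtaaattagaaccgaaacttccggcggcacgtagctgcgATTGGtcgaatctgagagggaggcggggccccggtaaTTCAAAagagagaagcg
Bub3 (chr7:131560260-131560369, plus strand): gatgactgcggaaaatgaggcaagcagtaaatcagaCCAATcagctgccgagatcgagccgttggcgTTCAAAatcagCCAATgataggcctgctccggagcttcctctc
Nusap1 (chr2:119618188-119618297, plus strand): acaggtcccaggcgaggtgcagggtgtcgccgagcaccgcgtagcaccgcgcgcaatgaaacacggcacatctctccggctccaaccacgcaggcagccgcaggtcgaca

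The CHR letters TTTGAA were present in 33 of the 48 promoters (68.8%), against 12.1% of the promoters of genes tested and 18.1% of all 27025 promoters in the table. The letters CCAAT were present in 35 (72.9%), against 38.4% of genes tested and 37.9% of all promoters. Both were present in 29 (60.4%), against 5.11% and 7.12%. The CHR element began 20 to 40 bases after the start of a CCAAT box in 16 promoters (33.3%), against 0.919% and 0.918%, a spacing chosen after the positions were seen. Other motifs were less frequent: the CHR variant TTTAAA was in 11 promoters (22.9%, against 9.08% and 13.2%), the variant TTCGAA in 4 (8.33%, against 2.03% and 1.57%), and the forkhead letters TGTTTAC in 2 (4.17%, against 2.41% and 3.55%). One of the E2F letters TTTCGCGC, TTTGGCGC, TTTCCCGC or TTTGCCGC was in 4 (8.33%, against 3.8% and 2.32%). All motifs were searched on both strands, and the lists overlap in that a promoter can hold several. Neither the CHR letters TTTGAA nor the CCAAT letters were found in the windows of Nuf2, Kif18a, Nusap1, Ncaph, Plk4, Melk, Mad2l1, Pttg1 and Birc5. Of these genes, Plk4 and Birc5 held the variant TTTAAA. A match is a run of letters and not a measured binding site.

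**Figure D1:**
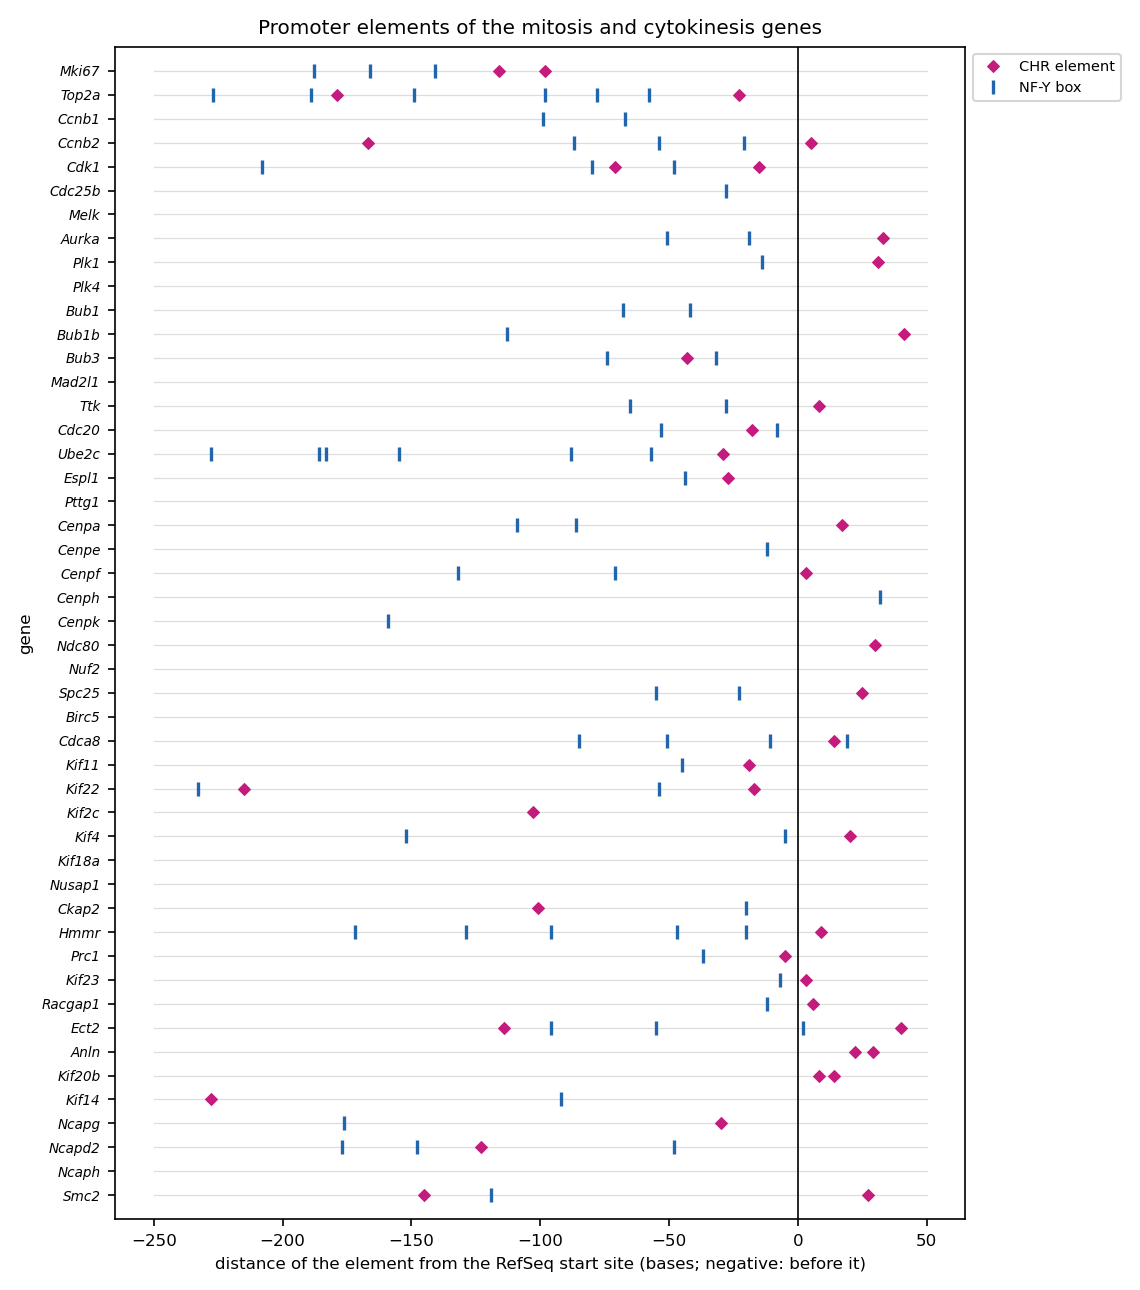
Positions of CHR elements (diamonds) and CCAAT boxes, labelled NF-Y box (ticks), in the promoters of the 48 genes with an entry, by distance in bases from the RefSeq start site (negative before it). CHR elements lie within 60 bases before or 50 bases after the start in 28 of the genes, often just after a CCAAT box.

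Most mitosis and cytokinesis genes were higher in both vesicle groups than with vehicle, and their summed share of the RNA was highest with TEV plus reserpine. Together the 57 genes held 0.324% and 0.340% of all estimated counts in the libraries with TEV plus reserpine, 0.206% and 0.243% with TEV, and 0.119% and 0.103% with vehicle. The 3 groups did not overlap in this share. In bulk RNA, a change in the number of cells of a kind and a change in RNA per cell cannot be told apart. Values below are CPM, the usual per-library scaling of estimated counts, adjusted with the library's TMM factor, and changes are log2 changes fitted by edgeR's quasi-likelihood test over all 15035 genes. A gene was called at a Benjamini-Hochberg adjusted p under 0.05.

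With TEV, 51 of the 57 genes were called higher than with vehicle and 0 lower, where 25.1% of all genes tested were called higher and 24.6% lower. The fitted change was at least 2-fold for 36 of the 51 genes, a rule met by 8.95% of all genes tested. The median log2 change was 1.19 over the 57 genes, and 0.01 over all genes tested. Scaling by library size alone shifted that all-gene median to -0.11, and 39.8% of all calls were then higher ones, against 50.5% with TMM factors, while the 57 genes' median stayed 1.18 above the all-gene median. The TEV libraries were both above the vehicle libraries for 55 of the 57 genes, against 39.9% of all genes tested, and both below for 0 genes, against 39%. The exceptions were Cdc25b and Plk4, whose groups overlapped.

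With TEV plus reserpine, 28 of the 57 genes were called higher than with TEV and 0 lower, where 15.7% of all genes tested were called higher and 16% lower. The median log2 change was 0.50 over the 57 genes, and 0.00037 over all genes tested. Leaving out Kif20b, which had no count in 1 library with TEV plus reserpine, the first median was 0.501. Only 5 of the genes were called at least 2-fold higher, a rule met by 5.61% of all genes tested, and 0 at least 2-fold lower, against 5.14%. Without TEV replicate 1 the count of 28 was 12, and without replicate 2 of TEV plus reserpine it was 14. The 12 genes called in each of 15 alternative analyses were Top2a, Ccnb1, Ccnb2, Ccna2, Cdk1, Ube2c, Cenpf, Birc5, Nusap1, Prc1, Kif23 and Smc4. Both libraries with TEV plus reserpine were above both with TEV for 50 genes (35% of all genes tested) and below both for 3, namely Bub3, Cenpk and Kif20b (35.8% of all genes tested). The groups overlapped for Cdc25c, Cenph, Kif18a and Racgap1.

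Against vehicle, 56 of the 57 genes were called higher with TEV plus reserpine and 0 lower, where 19.1% of all genes tested were called higher and 19.9% lower. At least 2-fold higher were 53 of them, a rule met by 6.94% of all genes tested. The median log2 change was 1.71 over the 57 genes (1.72 without Kif20b) and -0.02 over all genes tested. The libraries with TEV plus reserpine were both above vehicle for 56 genes, against 35.4% of all genes tested, and both below for 0, against 38.1%. Kif20b was the gene outside the counts of 56. In what follows, the 2 steps are TEV against vehicle and TEV plus reserpine against TEV. These 3 comparisons share libraries, so their counts are not independent of each other. Counts of calls by role, list or cell type below are to be read beside the shares over all genes tested. These shares were 25.1% higher and 24.6% lower in the first step, and 15.7% and 16% in the second. RefSeq lists pseudogene copies of Ccnb1, Ccnb2, Aurkb, Kif22 and Kif4 that could share reads with them, so the levels of these 5 genes are less certain.

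Markers of other cell types also changed with TEV, and most of their calls were lower ones. The 9 fibroblast markers tested of 10 listed were called lower for 8 and higher for 1 (Thy1) with TEV against vehicle, and the list summed to 512 and 461 CPM with TEV plus reserpine, 324 and 388 CPM with TEV, and 3584 and 3126 CPM with vehicle (library totals without TMM factors, here and in the next sums). Lum was at 0 in both libraries with TEV plus reserpine. All 9 markers of smooth muscle and pericytes were called lower with TEV, and they gave sums of 936 and 857 CPM with TEV plus reserpine, 735 and 861 CPM with TEV, and 2097 and 2085 CPM with vehicle. Cspg4 was at 0 in all 4 libraries with vesicles. Of 8 macrophage and leukocyte markers tested of 10, 4 were lower and 1 higher with TEV, and the list summed to 36.5 to 38.2 CPM with TEV plus reserpine, 27.7 to 29.1 CPM with TEV and 65.3 to 75.3 CPM with vehicle. Of 5 epithelial and mesothelial markers tested of 8, 3 were lower and 1 (Krt18) higher, with sums of 41.6 to 46.2 CPM with TEV plus reserpine, 30.3 to 32.4 CPM with TEV and 22.7 to 24.2 CPM with vehicle. Epcam, Sftpc and Scgb1a1 were at 0 in both libraries with TEV plus reserpine, Scgb1a1 and Msln in both with TEV, and Epcam in both with vehicle.

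Endothelial markers were present in every library. The 12 listed, among them Cdh5, Pecam1, Tie1 and Emcn, summed to 10115 and 9927 CPM with TEV plus reserpine, 9691 and 9798 CPM with TEV, and 5214 and 5189 CPM with vehicle. With TEV, 8 of the 12 were called higher and 4 (Kdr, Tek, Vwf and Cldn5) lower than with vehicle. With TEV plus reserpine against TEV, markers were called higher for 6 and lower for 3 of 12 endothelial, higher for 4 and lower for 1 of 9 fibroblast, and higher for 2 and lower for 0 of 9 smooth muscle and pericyte genes. In that comparison 1 of 8 macrophage and leukocyte markers and 1 of 5 epithelial and mesothelial markers were called higher and 0 lower. The part of these shifts in cell type markers in the rise of mitotic genes was not tested.

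**Figure D2:**
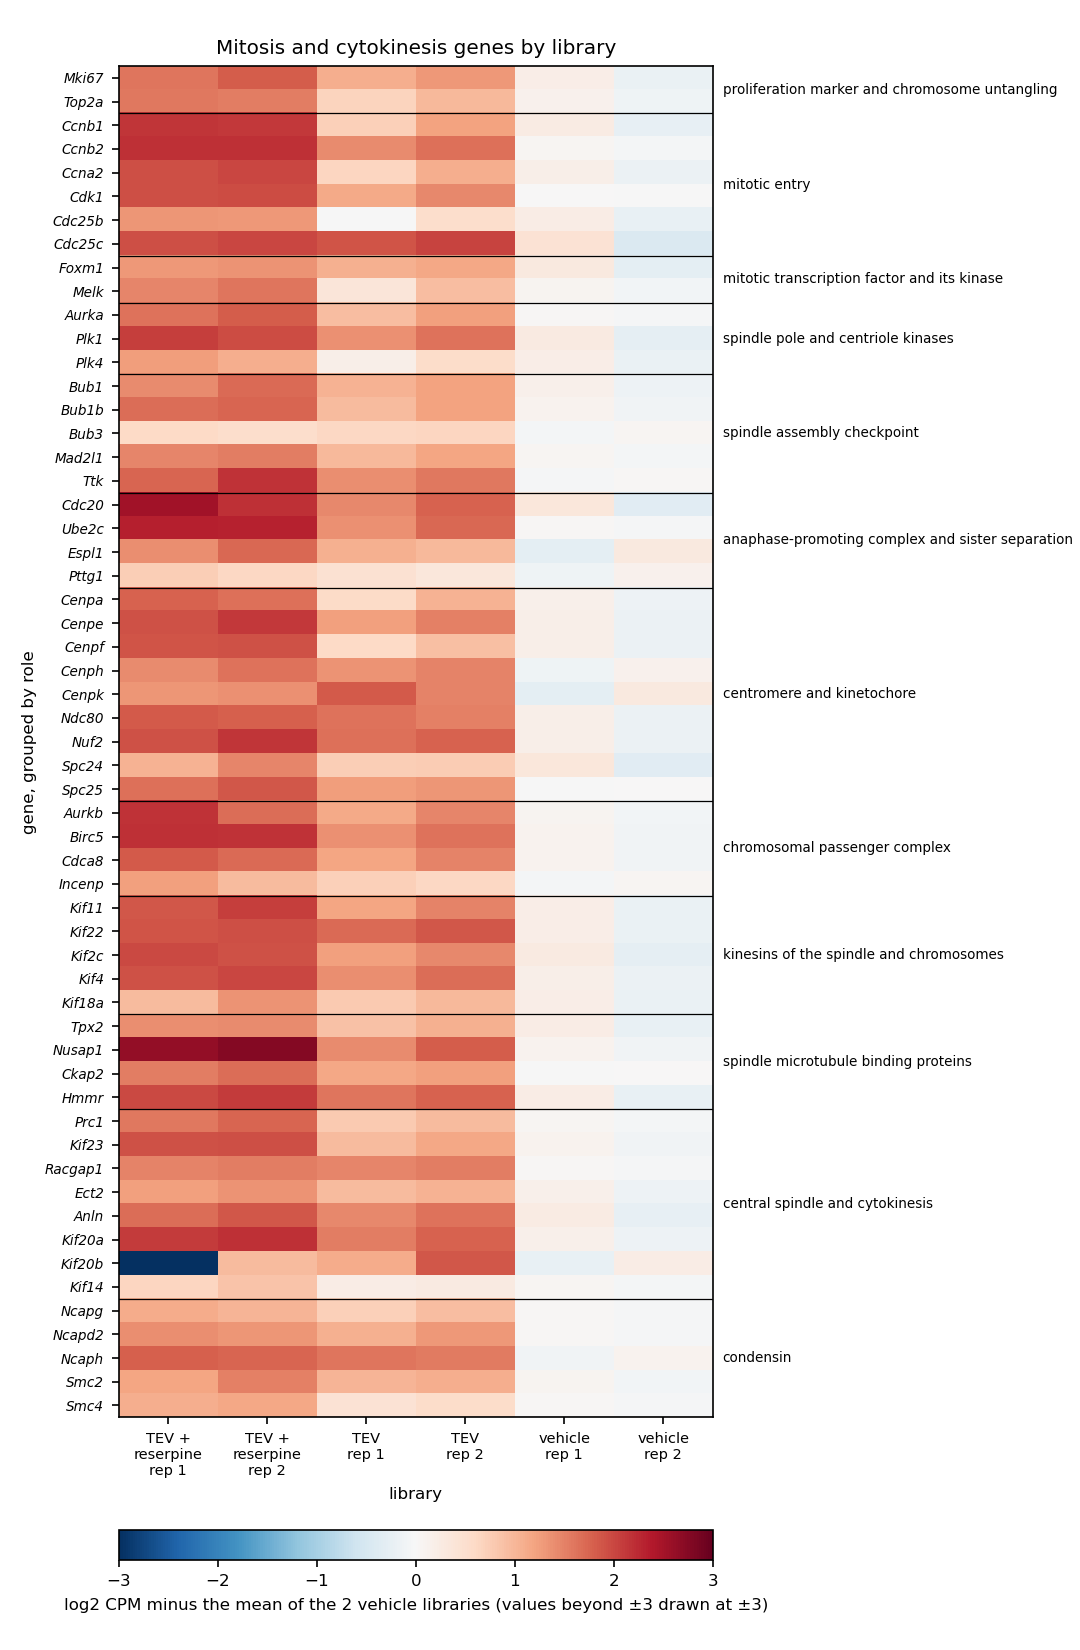
Log2 CPM of each of the 57 genes (rows, by role) in each of the 6 libraries (columns), minus the mean of the 2 vehicle libraries; red is higher and blue lower. The 4 vesicle columns are red for most genes; Kif20b, with no count in replicate 1 of TEV plus reserpine, and Cdc25b in TEV replicate 1 are below the vehicle mean.

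The proliferation marker Mki67 and the chromosome-untangling enzyme Top2a were called higher in both steps. Mki67 was at 228 and 266 CPM with TEV plus reserpine, 161 and 187 CPM with TEV, and 87.3 and 65.3 CPM with vehicle. Its log2 change with TEV against vehicle was 1.19 ± 0.16 SE, edgeR adjusted p = 0.00113, and with TEV plus reserpine against TEV it was 0.50 ± 0.16 SE, edgeR adjusted p = 0.0487. The second call ended when either TEV library or either library with TEV plus reserpine was left out (adjusted p up to 0.213). Top2a, which encodes topoisomerase II alpha, was at 217 and 209 CPM with TEV plus reserpine, 114 and 142 CPM with TEV, and 78.5 and 66.7 CPM with vehicle. The groups did not overlap, and the log2 changes were 0.82 with TEV against vehicle (edgeR adjusted p = 0.00227) and 0.73 with TEV plus reserpine against TEV (0.00787).

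Of the 6 genes of mitotic entry, 5 were called higher with TEV than with vehicle, 5 higher with TEV plus reserpine than with TEV, and 6 higher with TEV plus reserpine than with vehicle. Ccnb1 and Ccnb2 encode the B-type cyclins that activate CDK1. Ccnb1 was at 70.0 and 69.2 CPM with TEV plus reserpine, 25.9 and 36.7 CPM with TEV, and 18.6 and 13.4 CPM with vehicle. The 2 libraries with TEV plus reserpine were nearly equal and far above the rest, and the log2 changes were 0.97 with TEV against vehicle (edgeR adjusted p = 0.00795) and 1.15 ± 0.20 SE, edgeR adjusted p = 0.00831, with TEV plus reserpine against TEV. Ccnb2 was at 46.1 and 45.6 CPM with TEV plus reserpine, 26.8 and 31.3 CPM with TEV, and 10.4 and 9.68 CPM with vehicle. Its change with TEV was 1.54 ± 0.12 SE, edgeR adjusted p = 0.000117, and a further 0.66 was fitted with reserpine (edgeR adjusted p = 0.00757). Ccna2, the cyclin of S phase and G2, was at 75.0 and 77.5 CPM with TEV plus reserpine, 30.5 and 41.8 CPM with TEV, and 22.1 and 17.1 CPM with vehicle. Its 3 groups did not overlap, with log2 changes of 0.88 with TEV against vehicle and 1.07 with TEV plus reserpine against TEV (edgeR adjusted p = 0.00685 and 0.00665). Cdk1, the mitotic kinase itself, was at 114 and 116 CPM with TEV plus reserpine, 66 and 81 CPM with TEV, and 30.3 and 29.4 CPM with vehicle, with a log2 change of 1.30 ± 0.11 SE, edgeR adjusted p = 0.000195, with TEV against vehicle.

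Cdc25b and Cdc25c encode phosphatases that remove inhibitory phosphates from CDK1. Cdc25b was at 21.2 and 21.0 CPM with TEV plus reserpine, 8.36 and 12.1 CPM with TEV, and 9.94 and 7.17 CPM with vehicle. The TEV and vehicle libraries overlapped (log2 change 0.26 ± 0.23 SE, edgeR adjusted p = 0.376), whereas with TEV plus reserpine Cdc25b was called higher than with TEV (1.04 ± 0.23 SE, edgeR adjusted p = 0.0157). That call ended without TEV replicate 1 or without either library of TEV plus reserpine (adjusted p up to 0.0655). Cdc25c was at 6.70 and 6.95 CPM with TEV plus reserpine, 6.44 and 7.08 CPM with TEV, and 2.32 and 1.25 CPM with vehicle. Here both vesicle groups lay together, well above vehicle: the log2 change was 1.90 ± 0.29 SE, edgeR adjusted p = 0.00215, with TEV against vehicle, and 0.01 ± 0.28 SE, edgeR adjusted p = 0.981, with TEV plus reserpine against TEV. Whether Cdc25b and Cdc25c differ from each other in response was not tested.

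Foxm1 encodes the transcription factor that drives the late mitotic programme, and Melk a kinase reported to phosphorylate it. Foxm1 was at 66.8 and 68.9 CPM with TEV plus reserpine, 56.3 and 60.9 CPM with TEV, and 33.4 and 21.9 CPM with vehicle. It was called higher with TEV (1.08 ± 0.18 SE, edgeR adjusted p = 0.00325) but not with TEV plus reserpine against TEV (0.21 ± 0.18 SE, edgeR adjusted p = 0.403). Both libraries with TEV plus reserpine were above both with TEV, as for 35% of all genes tested. Melk was at 21.1 and 23.3 CPM with TEV plus reserpine, 9.91 and 14.5 CPM with TEV, and 8.04 and 7.28 CPM with vehicle. It was called higher in both steps (0.68, edgeR adjusted p = 0.0281, and 0.86, 0.0185). The first call of Melk ended in 5 of 15 alternatives, among them leaving out either vehicle library or TEV replicate 2 (adjusted p up to 0.116), and the second in 3.

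**Figure D3:**
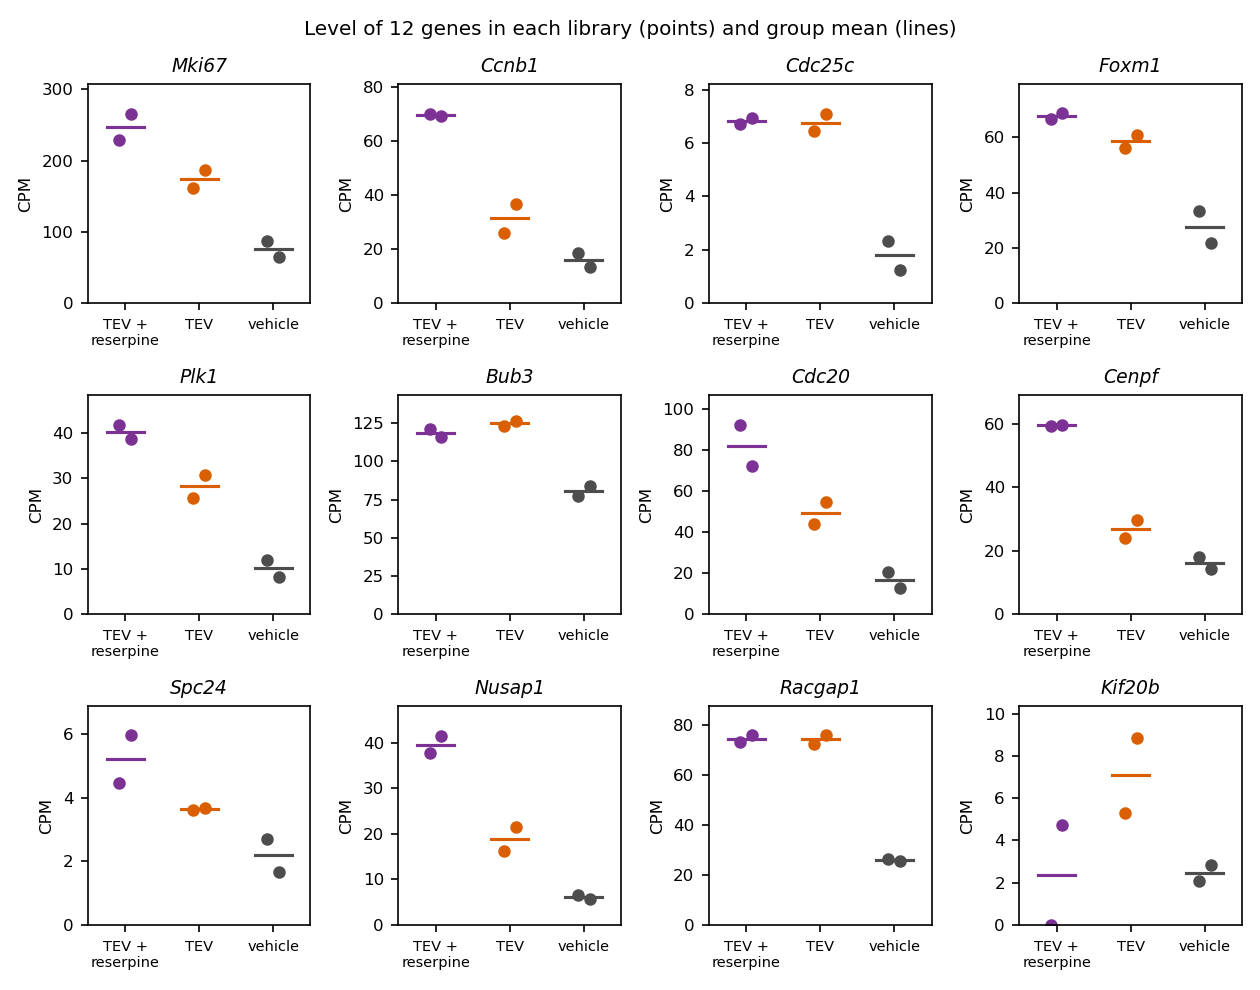
CPM (linear axis from 0) of 12 genes in each library (points), with the group mean as a line, for TEV plus reserpine, TEV and vehicle. Ccnb1, Cenpf and Nusap1 show 2 separate steps, whereas Cdc25c, Bub3 and Racgap1 lie together in the vesicle groups above vehicle.

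Of the 3 kinases of spindle poles and centrioles, 2 were called higher in each step. Plk1, the polo kinase that acts from mitotic entry to cytokinesis, was at 41.8 and 38.7 CPM with TEV plus reserpine, 25.7 and 30.8 CPM with TEV, and 12.0 and 8.29 CPM with vehicle. It was called higher with TEV (1.47 ± 0.19 SE, edgeR adjusted p = 0.000952), and its change with TEV plus reserpine against TEV was 0.51 ± 0.18 SE, edgeR adjusted p = 0.0747. Plk4, which starts centriole duplication, was at 12.1 and 10.7 CPM with TEV plus reserpine, 5.64 and 7.31 CPM with TEV, and 5.74 and 4.35 CPM with vehicle. Its TEV and vehicle libraries overlapped (0.36 ± 0.21 SE, edgeR adjusted p = 0.203), and it was called higher with TEV plus reserpine than with TEV (0.80 ± 0.21 SE, edgeR adjusted p = 0.0297). The last call ended without TEV replicate 1 or either library of TEV plus reserpine. Aurka, which builds the spindle poles, was called higher in both steps, with log2 changes of 1.10 and 0.63 (edgeR adjusted p = 0.000879 and 0.0146). Its second call was lost on leaving out TEV replicate 1 or replicate 2 of TEV plus reserpine (adjusted p up to 0.0739).

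Spindle assembly checkpoint genes were called higher with TEV for 5 of 5, and with TEV plus reserpine against TEV for 2 of 5 (Bub1b and Mad2l1). The call of Bub1b was lost without TEV replicate 1 or replicate 2 of TEV plus reserpine (adjusted p up to 0.0567), and that of Mad2l1 without any 1 library other than TEV replicate 2 (adjusted p up to 0.157). Ttk, which encodes the kinase MPS1 that starts checkpoint signalling, was at 16.6 and 22.4 CPM with TEV plus reserpine, 13.1 and 14.9 CPM with TEV, and 4.76 and 5.08 CPM with vehicle. It was called with TEV (1.51 ± 0.18 SE, edgeR adjusted p = 0.000785) and had a change of 0.48 ± 0.18 SE, edgeR adjusted p = 0.0794, with TEV plus reserpine against TEV. Bub3 was at 121 and 116 CPM with TEV plus reserpine, 124 and 126 CPM with TEV, and 77.5 and 83.9 CPM with vehicle. It was called higher with TEV (0.63 ± 0.08 SE, edgeR adjusted p = 0.000906), the smallest change of the 5, while its level with TEV plus reserpine was slightly under that with TEV (-0.08 ± 0.08 SE, edgeR adjusted p = 0.496, a sign that turned to 0.0023 with library size alone). Bub3 was still called higher with TEV plus reserpine than with vehicle (0.56, edgeR adjusted p = 0.00237).

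Genes of the anaphase-promoting complex pathway and of sister separation were called higher with TEV for 3 of 4. Cdc20, the activator that the checkpoint restrains, was at 92.0 and 72.4 CPM with TEV plus reserpine, 43.7 and 54.6 CPM with TEV, and 20.3 and 12.5 CPM with vehicle. All 3 groups stood apart, with a call with TEV against vehicle (1.57 ± 0.24 SE, edgeR adjusted p = 0.00212) and none with TEV plus reserpine against TEV (log2 change 0.74 ± 0.23 SE, edgeR adjusted p = 0.0522). The second comparison of Cdc20 was called in 10 of 15 alternatives. Ube2c, the ubiquitin-conjugating enzyme of that complex, was at 72.7 and 71.2 CPM with TEV plus reserpine, 37.5 and 47.1 CPM with TEV, and 14.6 and 14.1 CPM with vehicle. Ube2c was called in both steps (1.56 ± 0.13 SE, edgeR adjusted p = 0.00015, and 0.76 ± 0.12 SE, edgeR adjusted p = 0.00604). Pttg1 encodes securin, the inhibitor that holds back the protease separase, and was at 19.0 and 17.4 CPM with TEV plus reserpine, 15.6 and 14.3 CPM with TEV, and 10.4 and 12.4 CPM with vehicle. Its groups did not overlap, but the changes were small and neither step was called (0.40 ± 0.14 SE, edgeR adjusted p = 0.0529, and 0.28 ± 0.14 SE, edgeR adjusted p = 0.166). Between TEV plus reserpine and vehicle Pttg1 was called higher (0.68 ± 0.14 SE, edgeR adjusted p = 0.01), a call lost on leaving out replicate 1 of vehicle or of TEV plus reserpine. Espl1, the gene of separase, was called higher with TEV (0.99 ± 0.22 SE, edgeR adjusted p = 0.00992).

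Centromere and kinetochore genes were called higher with TEV for 8 of 9, with a median log2 change of 1.36, and with TEV plus reserpine against TEV for 4 of 9 (Cenpa, Cenpe, Cenpf and Spc25), with a median of 0.46. Cenpf, a large protein of the outer kinetochore, was at 59.5 and 59.8 CPM with TEV plus reserpine, 24.1 and 29.7 CPM with TEV, and 18.0 and 14.1 CPM with vehicle. The libraries with TEV plus reserpine were about level with each other and above all others, and the changes were 0.74 ± 0.15 SE, edgeR adjusted p = 0.00724, with TEV against vehicle, and 1.15 ± 0.15 SE, edgeR adjusted p = 0.00309, with TEV plus reserpine against TEV. Cenpk, a subunit of the inner kinetochore network, was at 2.32 and 2.38 CPM with TEV plus reserpine, 3.33 and 2.61 CPM with TEV, and 0.720 and 1.11 CPM with vehicle. It was called with TEV (1.70 ± 0.32 SE, edgeR adjusted p = 0.00504), and its 2 libraries with TEV plus reserpine lay under those with TEV without a call (-0.33 ± 0.31 SE, edgeR adjusted p = 0.444). Against vehicle, Cenpk was called higher with TEV plus reserpine (1.37, edgeR adjusted p = 0.0168), a call that ended without vehicle replicate 1 or either library of TEV plus reserpine. Cenpa, the histone variant that marks centromeres, rose in both steps, with log2 changes of 0.83 and 0.87 (edgeR adjusted p = 0.0113 and 0.016). The first call of Cenpa ended without vehicle replicate 2 (0.0603), and the second without TEV replicate 1 or either library of TEV plus reserpine. Cenpe, the kinetochore motor, rose by 1.36 and 0.65 (0.000619 and 0.0209 by edgeR, adjusted). The second call of Cenpe was lost without TEV replicate 1 or replicate 2 of TEV plus reserpine (adjusted p up to 0.106), and that of Spc25 without either TEV library or replicate 2 of TEV plus reserpine.

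The NDC80 complex, which holds the microtubule end, has 4 subunits, all in the list. With TEV against vehicle the log2 changes were 1.57 for Ndc80, 1.70 for Nuf2, 1.30 for Spc25 and 0.72 for Spc24, of which Spc24 was not called (edgeR adjusted p = 0.0821). Spc24 was at 4.47 and 5.97 CPM with TEV plus reserpine, 3.61 and 3.67 CPM with TEV, and 2.72 and 1.67 CPM with vehicle. Its groups did not overlap in either step, and with TEV plus reserpine it was called higher than with vehicle (1.24 ± 0.30 SE, edgeR adjusted p = 0.017), a call lost on leaving out replicate 2 of vehicle or of TEV plus reserpine. Whether the 4 subunits differ from each other was not tested.

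The chromosomal passenger complex corrects faulty attachments and later acts at the midzone, and its 4 genes were all called higher with TEV. Birc5, which encodes survivin, was at 53.9 and 52.4 CPM with TEV plus reserpine, 30.3 and 36.2 CPM with TEV, and 12.7 and 10.9 CPM with vehicle. All 3 groups stood apart, with log2 changes of 1.5 ± 0.13 SE, edgeR adjusted p = 0.000198, with TEV and 0.68 ± 0.13 SE, edgeR adjusted p = 0.00962, with reserpine added. Incenp, the scaffold of the complex, was at 45.7 and 37.5 CPM with TEV plus reserpine, 31.7 and 29.9 CPM with TEV, and 18.6 and 20.3 CPM with vehicle. Its change with TEV was the smallest of the 4 (0.66 ± 0.13 SE, edgeR adjusted p = 0.00519), and it was also called with TEV plus reserpine against TEV (0.43 ± 0.13 SE, edgeR adjusted p = 0.0399). That last call ended without either vehicle library, either TEV library or replicate 1 of TEV plus reserpine. Aurkb, the kinase of the complex, was called too (0.63 ± 0.19 SE, edgeR adjusted p = 0.0462), a call that ended without either vehicle library, TEV replicate 1 or replicate 1 of TEV plus reserpine.

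Kinesins are motor proteins, and the 5 grouped here under spindle and chromosomes were all called higher with TEV, with a median log2 change of 1.34. Other kinesins of the list are described under other roles, and of those Kif14 and Kif20b were not called with TEV. Kif22, a chromosome arm motor, was at 31.0 and 31.9 CPM with TEV plus reserpine, 27 and 30.2 CPM with TEV, and 9.61 and 7.21 CPM with vehicle. The vesicle groups did not overlap with vehicle (1.76 ± 0.16 SE, edgeR adjusted p = 0.000218) and lay close to each other (0.14 ± 0.15 SE, edgeR adjusted p = 0.519). Kif18a, which dampens chromosome movements at the plate, was at 8.67 and 11.3 CPM with TEV plus reserpine, 7.66 and 8.70 CPM with TEV, and 5.09 and 3.86 CPM with vehicle. Its change with TEV was 0.87 ± 0.22 SE, edgeR adjusted p = 0.0149, a call that ended without vehicle replicate 2 or TEV replicate 2 (adjusted p up to 0.0733), and the libraries of both vesicle groups overlapped. With TEV plus reserpine against TEV, Kif11, the motor that pushes spindle poles apart, and Kif2c, which depolymerises microtubules, were called higher (0.63 and 0.61, edgeR adjusted p = 0.0372 and 0.0446). Both of those calls ended without TEV replicate 1 or either library of TEV plus reserpine, and that of Kif2c also without TEV replicate 2.

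Spindle microtubule binding proteins were called higher with TEV for 4 of 4. Nusap1, which bundles spindle microtubules, was at 37.8 and 41.4 CPM with TEV plus reserpine, 16.2 and 21.5 CPM with TEV, and 6.5 and 5.68 CPM with vehicle. All groups stood apart, the changes were 1.63 ± 0.17 SE, edgeR adjusted p = 0.0004, with TEV and 1.07 ± 0.16 SE, edgeR adjusted p = 0.0048, with reserpine added, and the change of 2.70 with TEV plus reserpine against vehicle was the largest of the 57 genes by edgeR. Hmmr, a spindle assembly protein also known as a hyaluronan receptor, was at 61.0 and 66.3 CPM with TEV plus reserpine, 46.7 and 52.2 CPM with TEV, and 18.0 and 13.1 CPM with vehicle. It was called with TEV (1.66 ± 0.16 SE, edgeR adjusted p = 0.000285) and not with reserpine added (0.36, edgeR adjusted p = 0.113). Tpx2, the activator of Aurora A on the spindle, was at 113 and 115 CPM with TEV plus reserpine, 79.3 and 90.4 CPM with TEV, and 50.3 and 37.0 CPM with vehicle. Its change with TEV was 0.96 ± 0.15 SE, edgeR adjusted p = 0.00226, the smallest of the 4. Ckap2 was called in both steps (1.20 and 0.40, edgeR adjusted p = 0.000111 and 0.0165), the second call being lost without TEV replicate 1 or replicate 2 of TEV plus reserpine (adjusted p up to 0.081).

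Of the 8 genes of the central spindle and cytokinesis, 6 were called higher with TEV, and 3 (Prc1, Kif23 and Kif20a) higher with TEV plus reserpine than with TEV. Racgap1 and Kif23 encode the 2 proteins of centralspindlin, which places the cleavage furrow. Racgap1 was at 72.9 and 76.0 CPM with TEV plus reserpine, 72.4 and 75.9 CPM with TEV, and 26.5 and 25.6 CPM with vehicle. The vesicle groups overlapped and both lay above vehicle, with 1.51 ± 0.08 SE, edgeR adjusted p = 3.48e-05, with TEV and 0.01 ± 0.08 SE, edgeR adjusted p = 0.967, with reserpine added. Kif23 was called in both steps (1.06 and 0.86, edgeR adjusted p = 0.000855 and 0.00487), as was Prc1, the microtubule crosslinker of the midzone (0.87 and 0.80, 0.000633 and 0.00249). Kif20a, a midzone motor, was at 97.3 and 103 CPM with TEV plus reserpine, 65.1 and 77.1 CPM with TEV, and 25 and 20.4 CPM with vehicle. Its groups did not overlap, and its change with TEV was 1.64 ± 0.13 SE, edgeR adjusted p = 0.000148. The call of Kif20a with TEV plus reserpine against TEV (0.50 ± 0.13 SE, edgeR adjusted p = 0.028) was lost without TEV replicate 1 or either library of TEV plus reserpine. Ect2, which activates RhoA, and Anln, the actin scaffold anillin, were called higher with TEV (0.99 and 1.52, edgeR adjusted p = 0.00123 and 0.000531) and not with reserpine added (0.29 and 0.24, 0.141 and 0.294).

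A pair of motor genes in this role were not called with TEV. Kif14, a midbody motor, was at 7.55 and 8.84 CPM with TEV plus reserpine, 5.64 and 5.87 CPM with TEV, and 5.06 and 4.63 CPM with vehicle. The groups were close but did not overlap, with 0.25 ± 0.17 SE, edgeR adjusted p = 0.277, with TEV and 0.51 ± 0.17 SE, edgeR adjusted p = 0.0635, with reserpine added, and with TEV plus reserpine it was called higher than with vehicle (0.76 ± 0.18 SE, edgeR adjusted p = 0.0149). That call ended without either vehicle library or without replicate 2 of TEV plus reserpine. Kif20b was at 0 and 4.71 CPM with TEV plus reserpine, 5.30 and 8.86 CPM with TEV, and 2.07 and 2.82 CPM with vehicle. Replicate 1 of TEV plus reserpine had an estimated count of 0, where 3 counts would be 0.135 CPM, against 164 estimated counts in replicate 2. No change of Kif20b is therefore given for that group. Its fitted value enters medians unless it is said to be left out. With TEV against vehicle, the groups of Kif20b did not overlap, and it had a change of 1.55 ± 1.16 SE, edgeR adjusted p = 0.303, in the fit that shares its spread with the TEV plus reserpine libraries. Kif20b was called higher in 3 of 15 alternatives, those without either library of TEV plus reserpine or with only the TEV and vehicle groups (edgeR adjusted p = 0.0124 to 0.0135).

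Condensin, the ring complex that compacts mitotic chromosomes, was called higher with TEV for 5 of 5 genes and with TEV plus reserpine against TEV for 1 (Smc4). Ncaph, a subunit of condensin I, was at 48.6 and 47.2 CPM with TEV plus reserpine, 43.0 and 41.4 CPM with TEV, and 13.1 and 15.0 CPM with vehicle. Its vesicle groups lay close together, with 1.59 ± 0.11 SE, edgeR adjusted p = 6.44e-05, with TEV and 0.18 ± 0.10 SE, edgeR adjusted p = 0.215, with reserpine added. Smc4, a core ATPase, was at 96.6 and 101 CPM with TEV plus reserpine, 60.9 and 66.1 CPM with TEV, and 46.1 and 44.3 CPM with vehicle. Its change with TEV was the smallest of the 5 (0.49 ± 0.09 SE, edgeR adjusted p = 0.0034) and a called change with TEV plus reserpine against TEV (0.63 ± 0.08 SE, edgeR adjusted p = 0.00315). Ncapg was at 37.5 and 35.0 CPM with TEV plus reserpine, 28.5 and 32.9 CPM with TEV, and 17.7 and 16.7 CPM with vehicle, with 0.83 ± 0.11 SE, edgeR adjusted p = 0.00124, with TEV against vehicle. Smc2 and Ncapd2 were called with TEV (1.05 and 1.19, edgeR adjusted p = 0.000805 and 0.000213).

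**Figure D4:**
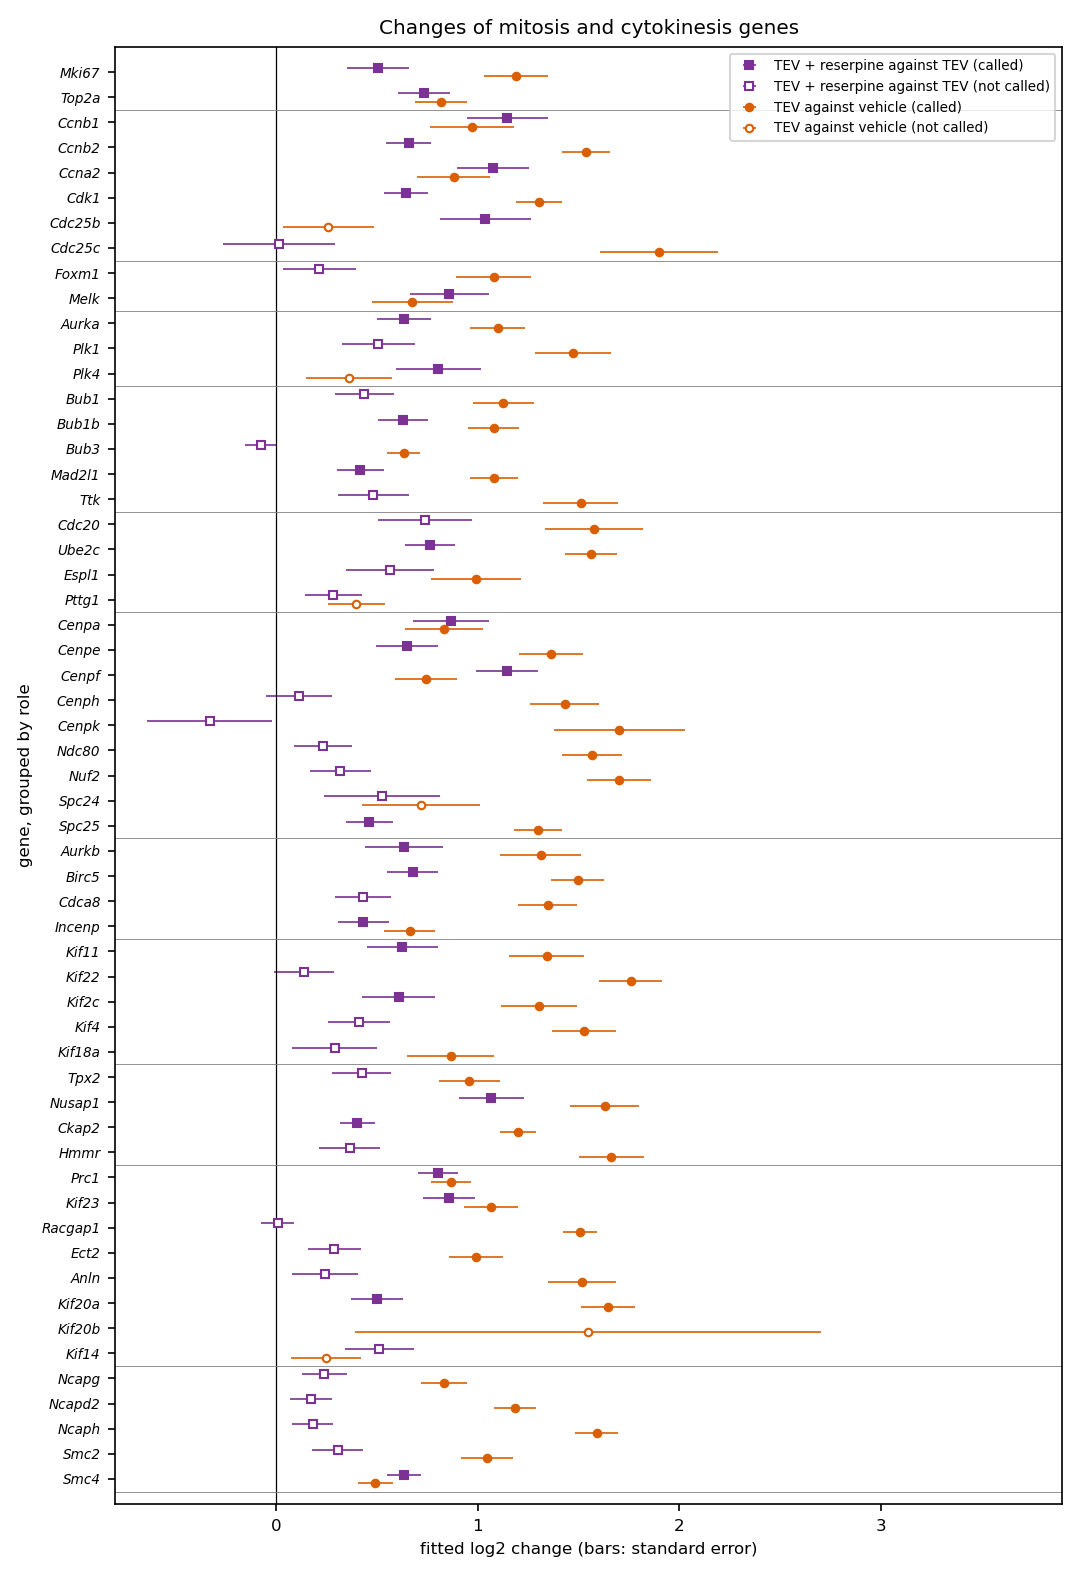
Fitted log2 changes with standard errors for each gene, for TEV plus reserpine against TEV (squares) and TEV against vehicle (circles), filled where called at an edgeR adjusted p under 0.05; Kif20b is left out of the first. Changes with TEV lie above 0 for all 57 genes, and the squares run from -0.33 (Cenpk) to 1.15 (Ccnb1 and Cenpf).

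The median log2 change with TEV plus reserpine against TEV was 0.85 for mitotic entry, 0.65 for the anaphase-promoting complex and sister separation, 0.63 for spindle pole and centriole kinases, 0.62 for Mki67 and Top2a, 0.54 for Foxm1 and Melk, and 0.53 for the chromosomal passenger complex. It was 0.50 for the 7 cytokinesis genes other than Kif20b (0.39 with the fitted value of Kif20b), 0.46 for centromere and kinetochore, and 0.44 for the checkpoint. For the kinesins of spindle and chromosomes and for spindle microtubule binding proteins it was 0.41 each, and for condensin 0.24. With TEV against vehicle the role medians ran from 0.88 (Foxm1 and Melk) to 1.41 (spindle microtubule binding proteins). The 5 largest changes with TEV plus reserpine against TEV were those of Ccnb1, Cenpf, Ccna2, Nusap1 and Cdc25b. Differences between roles were not tested.

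Other genes of the pathway differed by list, and most further spindle, cytokinesis and kinetochore genes were also called higher with TEV. Over all genes tested, 25.1% were called higher and 24.6% lower with TEV. With TEV plus reserpine against TEV these shares were 15.7% and 16%. Among 33 further spindle, centrosome and cytokinesis genes, 26 were called higher and 0 lower with TEV, and 8 higher and 2 lower with TEV plus reserpine against TEV. Their median log2 changes were 1.20 and 0.33 in these comparisons, beside 1.19 and 0.50 for the 57 genes. Aspm, a spindle pole protein, and Cep55, which acts at the midbody, were called higher in that comparison (1.23 and 1.03, edgeR adjusted p = 0.00554 and 0.0338). Haus8, an augmin subunit, and Stil, a centriole duplication factor, were called higher with TEV (2.32 and 2.18) and lower with TEV plus reserpine than with TEV (-0.93 and -0.75, 0.00271 and 0.00432 by edgeR, adjusted). Of 29 further kinetochore and centromere genes in the test, 21 were higher and 1 lower with TEV, and 6 higher and 1 lower with reserpine added. The medians of that list were 0.77 and 0.26. Zw10, a checkpoint protein recruiter, changed by 2.15 and -0.96 in the 2 steps and its partner Zwilch by 1.25 in the second (edgeR adjusted p = 3.72e-05, 0.00236 and 0.00124).

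Of 17 subunits and regulators of the anaphase-promoting complex, 9 were higher and 2 lower with TEV, with a median log2 change of 0.33. That list holds the inhibitor Fbxo5 and the enzyme Ube2s beside subunits and the activator Fzr1. With TEV plus reserpine against TEV, 1 of the 17 was higher and 5 lower, beside 15.7% and 16% of all genes tested. With TEV the medians were 0.45 for further condensin and cohesin genes and 0.69 for brakes, activators and partners of CDK1. Anapc1, the largest scaffold of the anaphase-promoting complex, was called higher in the first step and lower in the second (1.04 and -0.72, edgeR adjusted p = 0.000808 and 0.00815). Cdc23, another subunit, was called lower with TEV and higher with reserpine added (-0.63 and 0.99, 0.0237 and 0.00903). Of 13 further condensin, cohesin and separation genes, 8 were higher and 1 lower with TEV, and 1 was higher and 1 lower with reserpine added. Of 8 brakes, activators and partners of CDK1, 7 were higher with TEV and 2 with reserpine added. Wee1, a kinase that holds CDK1 inactive, was one of those 2 (0.83, edgeR adjusted p = 0.00622), and was not called with TEV (-0.11, 0.514). Pkmyt1, another such kinase, was called higher with TEV, with the largest change of the list (1.03, edgeR adjusted p = 0.00336).

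Among 25 regulators (MuvB subunits, MYB, E2F, NF-Y, pocket proteins, Trp53, Cdkn1a and Cdkn1b), 12 were higher and 2 lower with TEV. With TEV plus reserpine against TEV, 7 of them were higher and 6 lower, beside 15.7% and 16% of all genes tested. Lin9, a MuvB subunit, was higher with TEV and lower with reserpine added (1.87 and -0.96, edgeR adjusted p = 0.000128 and 0.00462). Mybl2, the activating partner of MuvB, was called higher with TEV plus reserpine than with TEV (1.07 ± 0.28 SE, edgeR adjusted p = 0.0298). The largest fall of the list in that comparison was that of Tfdp2 (-1.65 ± 0.28 SE, edgeR adjusted p = 0.00755). Rb1, the retinoblastoma gene, was called lower with TEV (-0.78 ± 0.10 SE, edgeR adjusted p = 0.00105), as was E2f5 (-0.82 ± 0.16 SE, edgeR adjusted p = 0.00639). E2f7 was called higher with TEV (1.75 ± 0.12 SE, edgeR adjusted p = 7.24e-05).

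DNA replication precedes mitosis in the cell cycle, and its genes were set beside those of mitosis. Of 30 replication genes, 28 were called higher with TEV than with vehicle, with a median log2 change of 1.14, beside 51 of 57 mitosis and cytokinesis genes with a median of 1.19. With TEV plus reserpine against TEV, 3 of 30 were called higher, with a median of 0.19, beside 28 of 57 with a median of 0.50. The share called higher over all genes tested was 25.1% in the first of these comparisons and 15.7% in the second. The difference between the lists was not tested.

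**Figure D5:**
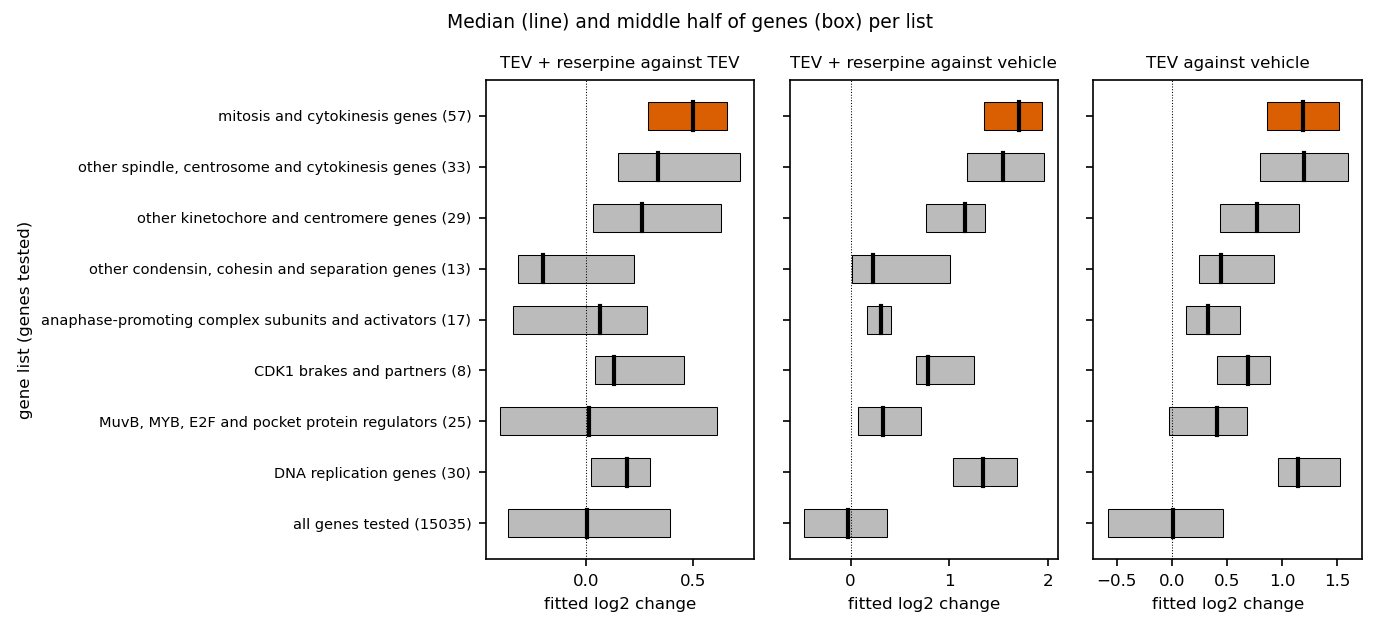
Median (line) and quartile range (box) of fitted log2 changes for the mitosis and cytokinesis genes (orange), 7 other lists of the pathway and all genes tested (grey), in TEV plus reserpine against TEV, TEV plus reserpine against vehicle, and TEV against vehicle. In the first panel the median of the 57 genes is 0.50 and that of DNA replication genes 0.19. The list labelled anaphase-promoting complex subunits and activators also holds the inhibitor Fbxo5 and the enzyme Ube2s. The list labelled CDK1 brakes and partners also holds the activating phosphatase Cdc25a.

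Called genes were found with and without the promoter elements, here the letters TTTGAA and CCAAT alone. Of the genes without TTTGAA, Ccnb1, Cenpe, Plk4 and Birc5 held the CHR variant TTTAAA, and Bub1 and Cdc25b the variant TTCGAA. Among the 29 genes with both a CHR element and a CCAAT box, 28 were called higher with TEV (median log2 change 1.19), and 14 with TEV plus reserpine against TEV (0.51). The 19 without both include genes with only a CHR element or only a CCAAT box. Of these 19, 15 were called higher with TEV (1.36), and 9 with TEV plus reserpine against TEV (0.42, with the fitted value of Kif20b). For the 9 genes with neither element these counts were 7 (1.08) and 5 (0.42). With TEV, 31 of 33 genes with a CHR element (1.30) and 12 of 15 without it (1.13) were called higher. Differences between these groups were not tested. In the printed stretches, Cdk1 and Ube2c, with both elements, were called in both steps, and so was Nusap1, with neither. Bub3 and Kif22, also with both, were called with TEV against vehicle and not with TEV plus reserpine against TEV.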

How the data were processed

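Expected counts per gene, estimated by kallisto 0.45.0 per the submitters' processing notes, were deposited by the authors for 6 libraries of 75 bp single-end reads; no source here states whether counting used strand. The notes name a human build, whereas the symbols are mouse. Counts were rounded and filtered with filterByExpr, which kept 15035 genes. One model with the 3 groups (3 residual degrees of freedom) was fitted with TMM factors and edgeR's quasi-likelihood test (edgeR 4.0.16, R 4.3.3), with Benjamini-Hochberg adjustment over all genes tested and a threshold of 0.05. The fit was also run on simulated counts with changes set in part of the genes of the TEV group. That run checked the code and not the results above. SE is the size of the log2 change divided by the square root of the F statistic.

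The genes, lists and promoter motifs were chosen with earlier results of these data known. Values in every library are given for the largest and smallest change with TEV in each role, for genes not called with TEV, and for the 5 largest and 5 smallest changes in the other comparisons; Cdk1 is added for its role. From other lists, some of the 2 largest and 2 smallest changes are named. Alternatives included DESeq2 1.42.0, limma-voom (limma 3.58.1), other scalings and filters, and leaving out each library. A planned search of protein sequences was not run.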

Additional observations from a re-analysis of the deposited data

How the results depend on the processing

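Over 15 alternatives, 48 of 51 calls of mitosis and cytokinesis genes with TEV against vehicle, 12 of 28 with TEV plus reserpine against TEV and 52 of 56 with TEV plus reserpine against vehicle were kept in every alternative, and 0 called genes changed sign. Leaving out 1 library each gave 48 to 52, 12 to 29 and 53 to 56 calls higher. The count of 1 called lower in both comparisons of TEV plus reserpine, without its replicate 2, was Kif20b, which then had no counts in that group. Over all genes, leaving out 1 library gave 2714 to 3812 higher and 2776 to 3740 lower with TEV against vehicle, 1075 to 2184 and 1078 to 2155 with TEV plus reserpine against TEV, and 1836 to 2997 and 1837 to 3009 with TEV plus reserpine against vehicle. Uncalled changes that turned sign were Cdc25b with TEV (-0.039 without TEV replicate 2, up to 0.52 without vehicle replicate 1) and, with TEV plus reserpine against TEV, Bub3 (0.0023 with library size alone), Racgap1 (-0.0064 with no low-count filter, -0.032 without TEV replicate 1, -0.024 without TEV plus reserpine replicate 2, 0.053 without TEV replicate 2, 0.084 with library size alone), Cdc25c (-0.057 and -0.014 without the same libraries, 0.095 without TEV replicate 2, 0.119 with counts thinned to the smallest library) and Cenph (-0.0051 without TEV plus reserpine replicate 2, up to 0.22 without its replicate 1); the cause was not tested. The titles number both vesicle groups 1 and 2, the deposited columns 2 and 3; by the titles, replicate numbers did not pair the samples (correlations of deviations -0.0484, -0.0487 and 0.00403); with a replicate block on the title numbers 51, 20 and 56 genes were called higher.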
